A study of Mus musculus with 19 samples.

Results

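The 76 genes described here encode the proteins of the cytosolic ribosome, 45 of the large subunit (Rpl) and 31 of the small subunit (Rps). They were taken by symbol from the 22193 genes listed in both deposited tables of mouse cerebellum RNA: 80 symbols consist of Rpl or Rps, a number and at most a letter and a further digit, and 76 of these reached 1 FPKM (fragments per kilobase of transcript, scaled to the mapped fragments of the library) in at least 3 of 19 libraries. Rps27a, which encodes a ribosomal protein fused to ubiquitin, was listed at 0 in all 19 libraries. Every cell uses this gene, so its 0 may be a failed estimate, and no level is given for it. Rpl10l, Rpl39l and Rpl3l, copies known from testis and muscle, reached at most 0.0475, 0.296 and 0.836 FPKM and were left out. None of the 76 genes had a listed 0 in any library. Rps4y2 passed the symbol rule, but RefSeq now calls the locus Rps4l and types it as a transcribed pseudogene.

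A cytosolic ribosome carries a copy of almost every one of these proteins, and cells make them in matched amounts together with ribosomal RNA. Cells that grow and divide need many new ribosomes, and transcription factors of the Myc family raise the genes of ribosome production. Most ribosomal protein mRNAs begin with a cytosine followed by a run of pyrimidines, the 5′ terminal oligopyrimidine (TOP) tract, through which the kinase mTORC1 controls their translation. That control acts on translation, and the values here are RNA levels. In medulloblastoma driven by Sonic hedgehog, the dividing cells descend from granule neuron progenitors of the cerebellum, which depend on Mycn.

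The libraries were made from cerebellum of C57BL/6 mice at postnatal day 60. Ctrl were 3 libraries from wild-type mice. Olig1-Gnas were 8 libraries from mice with a conditional knockout of Gsa (the gene Gnas) driven by Olig1Cre. The 8 hGFAP-Gnas libraries came from mice with the same gene knocked out by hGFAPCre. Gnas encodes Gs alpha, through which receptors turn on adenylyl cyclase, and the title of the series names it a tumor suppressor in Sonic hedgehog medulloblastoma. Cre driven by Olig1 acts mainly in the oligodendrocyte lineage and some progenitors, and Cre driven by the human GFAP promoter acts in neural progenitors and the neurons and glia they form, so cells outside these lineages keep the gene. The name of the deposited table of hGFAP-Gnas carries the word tumor. A difference from Ctrl in bulk tissue can come from more or fewer cells of a type or from more or less RNA per cell, and these cannot be told apart here.

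Absolute depth is unknown, since the labels and tables carry no read totals. A relative depth was taken from genes above 0 and under 0.5 FPKM in both a library and Ctrl 2. The depth relative to Ctrl 2 was the inverse of their most common FPKM ratio of that library to Ctrl 2. It was 0.841 to 1.06 in 10 deeper libraries (Ctrl 1 and 2, Olig1-Gnas 5 to 8, hGFAP-Gnas 1 to 4) and 0.270 to 0.432 in 9 shallower ones (Ctrl 3, Olig1-Gnas 1 to 4, hGFAP-Gnas 5 to 8). Gnas was listed at 651, 798 and 0 FPKM in Ctrl 1 to 3, at 0 to 121 FPKM (median 28.7) in Olig1-Gnas, and at 0 in 7 hGFAP-Gnas libraries with 40.9 FPKM in hGFAP-Gnas 5. A 0 in the wild-type Ctrl 3 may be a failed estimate, and which part of the gene was removed is not given in the labels, so these values check the labels only in part. hGFAP-Gnas 1 stood apart from the other 7 libraries of its group, close to Ctrl. Some hGFAP-Gnas results are given with and without it, and the others include it unless stated.

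Annotated gene starts were searched for the TOP sequence. A start annotated a few bases away from the one used would hide a tract, so the counts do not give the share of TOP mRNAs. Rpl27a, with 16 pyrimidines from a start that is not a cytosine, does not enter the first count. RefSeq promoters (GRCm38.p6, 250 bases before to 50 after the annotated start) were matched for 57 of the 76 genes. At the annotated start, 12 of 57 genes (21.1%) had a cytosine followed by at least 4 pyrimidines, against 3.01% of all 27025 genes with a promoter. Within 10 bases of the start on either side, 23 of 57 (40.4%) had a run of at least 8 pyrimidines that opens with a cytosine, against 9.43% of all. The windows below run from 30 bases before to 15 bases from the start, with the pyrimidine run that opens at the start in capitals. The first 7 have such a run, among them genes that rose much, Rps18, and little, Rps15a. The last 3, all copies of another ribosomal protein gene, have none at the annotated start. They share this with most of the 57 genes, 45 in all. Rpl22l1 has a run of 8 pyrimidines that opens with a cytosine 3 bases after its start.
Rps18, chr17:33955651-33955695, minus strand: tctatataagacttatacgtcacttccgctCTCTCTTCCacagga
Rps10, chr17:27635230-27635274, minus strand: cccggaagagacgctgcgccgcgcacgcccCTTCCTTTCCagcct
Rpl35, chr2:39005117-39005161, minus strand: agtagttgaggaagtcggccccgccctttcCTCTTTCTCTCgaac
Rpl15, chr14:18270972-18271016, minus strand: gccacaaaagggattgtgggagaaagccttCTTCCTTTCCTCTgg
Rps6, chr4:86857353-86857397, minus strand: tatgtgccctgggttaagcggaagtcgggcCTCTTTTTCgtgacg
Rps27, chr3:90213634-90213678, minus strand: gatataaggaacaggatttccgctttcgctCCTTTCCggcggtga
Rps15a, chr7:118116133-118116177, minus strand: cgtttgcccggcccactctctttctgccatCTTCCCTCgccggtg
Rpl22l1, chr3:28805478-28805522, plus strand: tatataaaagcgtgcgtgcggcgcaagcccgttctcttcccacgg
Rps27l, chr9:66946056-66946100, plus strand: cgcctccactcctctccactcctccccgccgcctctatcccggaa
Rpl7l1, chr17:46782642-46782686, minus strand: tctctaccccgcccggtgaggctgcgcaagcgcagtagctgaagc

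The run from the start was 7 bases in Rps27, 9 in Rps18 and Rps6 and 13 in Rpl15. Rpl22l1 and Rps27l start with a guanine, and Rpl7l1 starts with a cytosine that a purine follows. Among 4 motifs searched in the 300 bases on both strands, CCGGAAG was in 23 of 57 promoters (40.4%) against 9.93% of all, and GGGCGG in 35 (61.4%) against 38.2%. AAGATGGC was in 6 (10.5%) against 3.19%, and TATAAA in 6 (10.5%) against 15.7%. These are matches of letters, not sites shown to be used, and the 27025 genes include genes not tested here.

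The summed FPKM of the 76 genes took 1.37 to 1.88% of all FPKM in Ctrl, with a mean of 1.63 ± 0.253% (SD, n = 3). In Olig1-Gnas the share was 5.48 to 7.93%, with a mean of 6.54 ± 0.810% (SD, n = 8). All 8 Olig1-Gnas libraries lay above all Ctrl libraries. In hGFAP-Gnas the share averaged 4.42 ± 1.41% (SD, n = 8). Within that group hGFAP-Gnas 1 was at 1.59%, inside the Ctrl range, hGFAP-Gnas 7 at 3.19%, and the other 6 at 4.34 to 6.00%. Large and small subunit genes held near equal parts: their shares averaged 0.876 and 0.758% in Ctrl, 3.30 and 3.24% in Olig1-Gnas and 2.27 and 2.15% in hGFAP-Gnas. By median gene, levels were 80.0 to 107 FPKM in Ctrl, 360.0 to 537 FPKM in Olig1-Gnas, and 191 to 383 FPKM in hGFAP-Gnas without library 1, which was at 87.1 FPKM.

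**Figure D1:**
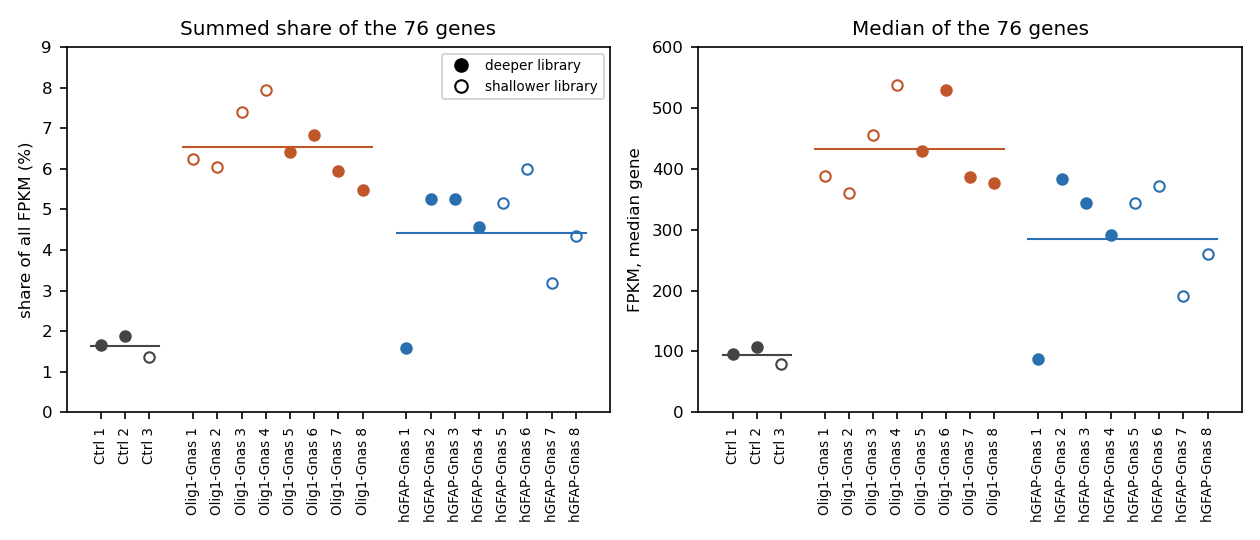
Summed share of all FPKM (left, %) and level of the median gene (right, FPKM) for the 76 ribosomal protein genes in each library; filled points are deeper and open points shallower libraries, and lines are group means. All Olig1-Gnas libraries lie at 5.48% or more, Ctrl at 1.88% or less, and hGFAP-Gnas 1 lies among Ctrl at 1.59%.

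Markers of several cell types differed between the same groups. By the test described below, 36.2% of all genes were called higher and 23.6% lower in Olig1-Gnas. In hGFAP-Gnas these shares were 26.1 and 12.8%, or 38.0 and 19.4% without hGFAP-Gnas 1. Summed FPKM of 8 genes of dividing cells was 36.5 to 42.0 in Ctrl. It was 777 to 1504 in Olig1-Gnas libraries, 56.0 in hGFAP-Gnas 1, 416 in hGFAP-Gnas 7 and at most 1065 in the remaining hGFAP-Gnas libraries. All 8 of these genes passed the test as higher in each knockout group. The 7 markers of granule progenitors summed to 15.8 to 21.9 FPKM in Ctrl. They reached 690.1 to 1391 FPKM with Olig1Cre and 59.0 (library 1) to 1150 FPKM with hGFAPCre, with 7 of 7 called higher in each. The 10 markers of mature granule neurons summed to 1789 to 2370 FPKM in Ctrl, to 171 to 688 FPKM with Olig1Cre and to 261 to 1643 FPKM with hGFAPCre, highest in library 1. Of these 10 genes 8 were called lower in Olig1-Gnas and 6 in hGFAP-Gnas (8 without library 1). Purkinje cell markers (8 genes) summed to 3182 to 4892 FPKM in Ctrl, 30.7 to 943 in Olig1-Gnas, with 8 of 8 called lower, and 131 to 2349 in hGFAP-Gnas, with 7 of 8 called lower (8 without library 1). Oligodendrocyte markers (8 genes) summed to 876 to 1112 FPKM in Ctrl, 22.3 to 294 in Olig1-Gnas, with 8 of 8 called lower, and 154 to 938 in hGFAP-Gnas, highest in library 2, with 2 of 8 called lower (4 without library 1). Astrocyte and Bergmann glia markers (8 genes) summed to 2427 to 3189 FPKM in the Ctrl libraries. Their sums were 273 to 1479 FPKM across Olig1-Gnas libraries and 921 to 2939 FPKM across hGFAP-Gnas libraries. Of these, 2 were called higher and 4 lower in Olig1-Gnas, and 1 higher and 2 lower in hGFAP-Gnas (2 and 4 without library 1). Beside the shares over all genes, the counts called higher do not set this list apart. Microglial markers (8 genes) summed to 70.2 to 105 FPKM in Ctrl, to 606 to 2205 FPKM with Olig1Cre and to 154 to 1346 FPKM with hGFAPCre. Of their 8 genes 7 were called higher in Olig1-Gnas and 8 in hGFAP-Gnas. Choroid plexus markers were high in single libraries of each group, with 1234 FPKM in Ctrl 3, 2356 in Olig1-Gnas 8 and 892 in hGFAP-Gnas 8. No marker of any of these lists was at 0 throughout a group, and the part of cell composition in the ribosomal protein levels was not tested.

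Against Ctrl, 73 of the 76 genes rose in Olig1-Gnas and 2 fell. The test was limma on log2(FPKM + 1), with p-values adjusted over all 14183 genes tested and a call at an adjusted p under 0.05. Of all genes in that test, 36.2% were called higher, 23.6% lower and 59.8% either way. The median log2 fold of the 76 genes was 2.16, against 0.22 over all genes. For 71 of the 76 genes every Olig1-Gnas library lay above every Ctrl library, as for 32.2% of all genes tested. The 31 small subunit genes had a median log2 fold of 2.32 with 30 called higher, and the 45 large subunit genes 2.0 with 43 called higher. In the deeper libraries alone 72 members were called higher and 2 lower (29.1 and 16.6% of all genes, 45.7% either way), and in the shallower ones 67 and 1 (26.8 and 12.5%, 39.2% either way).

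In the small subunit, Rps26 (chr10:128061584-128063562 in mm9), a protein at the mRNA exit whose gene is mutated in Diamond-Blackfan anemia, rose most. It stood at 109.7, 118 and 83.1 FPKM in Ctrl 1 to 3 and had a lowest, median and highest value of 672, 855 and 1258 FPKM in Olig1-Gnas, a log2 fold of 3.08 (SE 0.18, adjusted p = 5e-08). Every Olig1-Gnas library lay above the highest Ctrl value. Rps19 (chr7:25669732-25674821 in mm9), needed to mature the small subunit and the gene most often mutated in Diamond-Blackfan anemia, went from 57.1, 67.6 and 53.4 to 353, 398 and 592 FPKM, a log2 fold of 2.84 (SE 0.18, adjusted p = 1.19e-07). Rps20, a head protein mutated in a hereditary colorectal cancer, went from 171, 178 and 144 to 1003, 1065 and 1448 FPKM, a log2 fold of 2.79 (SE 0.14, adjusted p = 1.68e-08). The groups did not overlap for any of these 3 genes, and Olig1-Gnas 4 was highest for each of them. Rps2 had a log2 fold of 2.89 (SE 0.38, adjusted p = 5.3e-05), but its Ctrl values of 13.2, 15.6 and 2.80 FPKM differed more than those of any other of the 76 genes (SD of log2 1.17). Rps6, the protein that S6 kinase phosphorylates, was at 75.9, 85.4 and 73.0 FPKM in Ctrl and 307, 331 and 438 FPKM in Olig1-Gnas, a log2 fold of 2.13 (SE 0.13, adjusted p = 6.07e-08). Rps15, needed for export of the small subunit, had the highest Ctrl mean of all 76 genes at 353 ± 63.5 FPKM (SD, n = 3) and rose to 1426 ± 221 FPKM (SD, n = 8), a log2 fold of 2.01 (SE 0.17, adjusted p = 1.24e-06).

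In the large subunit, Rpl32 (chr6:115724574-115758761 in mm9) rose most, from 198, 223 and 170.5 FPKM in Ctrl to a lowest, median and highest value of 1309, 1578 and 2189.6 FPKM, a log2 fold of 3.05 (SE 0.17, adjusted p = 3.6e-08). Rpl41, the smallest ribosomal protein, and Rpl38, known for a part in translating Hox mRNAs, followed Rps15 in Ctrl with means of 350.1 ± 57.7 and 330.0 ± 49.7 FPKM (SD, n = 3). They rose unequally: Rpl41 reached 2008 ± 437 FPKM and Rpl38 901 ± 129.6 FPKM (SD, n = 8), with log2 folds of 2.5 (SE 0.18, adjusted p = 3.74e-07) and 1.45 (SE 0.14, adjusted p = 5.09e-06). Rpl39, which lines the tunnel through which the new protein leaves, went from 217, 228 and 151 to 1038, 1147 and 1511 FPKM, a log2 fold of 2.60 (SE 0.17, adjusted p = 1.24e-07). Rpl5 and Rpl11, which bind 5S ribosomal RNA and, when not built into ribosomes, inhibit Mdm2, rose by 2.26 (SE 0.15, adjusted p = 1.78e-07) and 2.06 (SE 0.16, adjusted p = 6.91e-07) on the log2 scale. Rpl5 was at 73.8, 75.5 and 61.0 FPKM in Ctrl and 281, 316 and 414 FPKM in Olig1-Gnas, and Rpl11 at 131, 151 and 114 and 457, 509.9 and 701 FPKM. Neither gene had an Olig1-Gnas library within the Ctrl range.

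Among the members that did not rise, Rps4y2, the pseudogene locus, was at 7.55, 11.4 and 5.19 FPKM in Ctrl and 0.649, 1.76 and 3.30 FPKM in Olig1-Gnas, without overlap, and fell by 1.63 (SE 0.34, adjusted p = 0.00134). Rpl26, which lies at the exit of the tunnel, was at 2.94, 10.8 and 5.26 FPKM in Ctrl and 5.0, 15.2 and 46.6 FPKM in Olig1-Gnas, with a log2 fold of 1.43 (SE 0.60, adjusted p = 0.0577). Its groups overlapped, and its SD of log2 was among the 3 largest in both Ctrl (0.80) and Olig1-Gnas (1.04). Its adjusted p was 0.0439 without Ctrl 2, 0.0184 without Olig1-Gnas 7 and 0.0443 without Olig1-Gnas 8. The smallest rises were in Rps15a, from 18.0, 18.4 and 25.3 to 25.5, 33.1 and 50.8 FPKM with a log2 fold of 0.76 (SE 0.21, adjusted p = 0.00822), and in Rpl22l1 with 0.96 (SE 0.24, adjusted p = 0.00429). Rpl21 rose by 1.15 (SE 0.33, adjusted p = 0.00954) on the log2 scale, with an adjusted p of 0.0567 without Ctrl 3. In the shallower libraries alone, with Ctrl 3 as the only Ctrl, the log2 folds of Rpl21, Rpl22l1 and Rpl29 were 1.03, 1.23 and 1.73. Those of Rps15a and Rps4y2 were 0.42 and -1.40. Rpl7l1 was not called by limma in the deeper libraries alone (adjusted p = 0.113).

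**Figure D2:**
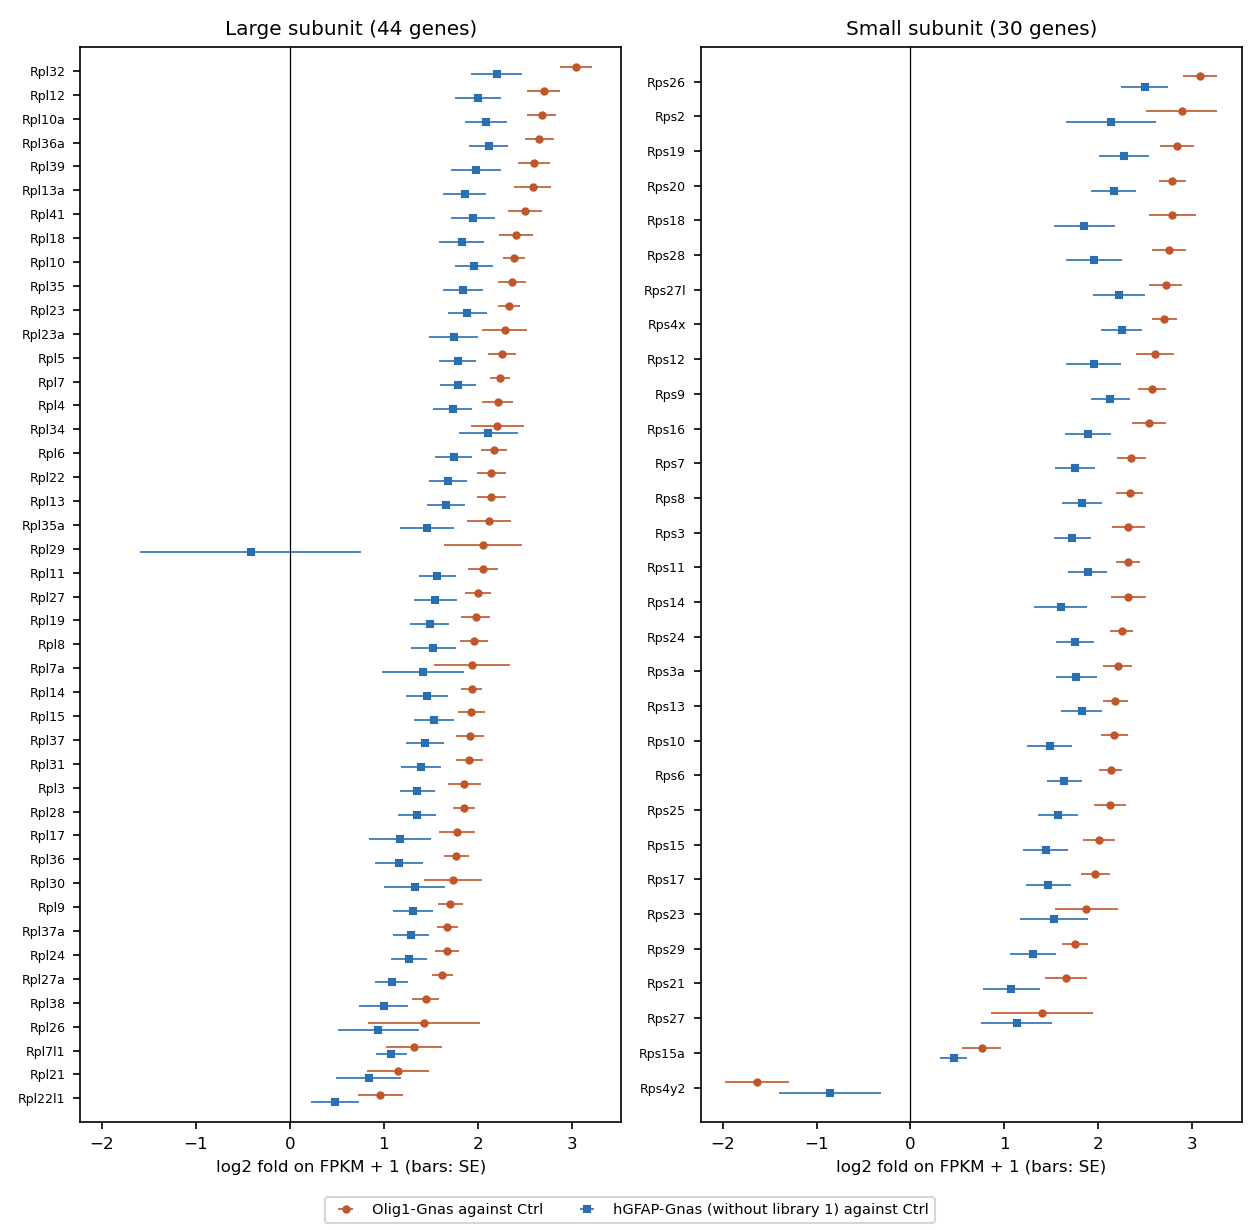
Log2 fold against Ctrl of 74 of the ribosomal protein genes on FPKM + 1 (x axis; points are limma estimates, bars their SE), for Olig1-Gnas (circles) and for hGFAP-Gnas without library 1 (squares), large subunit left and small subunit right, sorted by the fold in Olig1-Gnas. Of the 74 genes drawn, all but Rps4y2 lie above 0 in Olig1-Gnas, from 0.76 for Rps15a to 3.08 for Rps26.

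Most members moved together from library to library. Over the 16 knockout libraries the median correlation of a gene's log2 level with the median of the family was 0.977, with 61 of 76 genes over 0.9 and 5 under 0.5, the lowest Rps4y2 at −0.58. Within Olig1-Gnas, where libraries differ less, the median was 0.831 (n = 8), and within hGFAP-Gnas 0.988 (n = 8). These points share libraries and depth, and each gene is part of the family median. Spread within a group, as the SD of log2 FPKM, had a median over genes of 0.21 in Ctrl, 0.25 in Olig1-Gnas and 0.71 in hGFAP-Gnas, or 0.37 there without library 1.

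**Figure D3:**
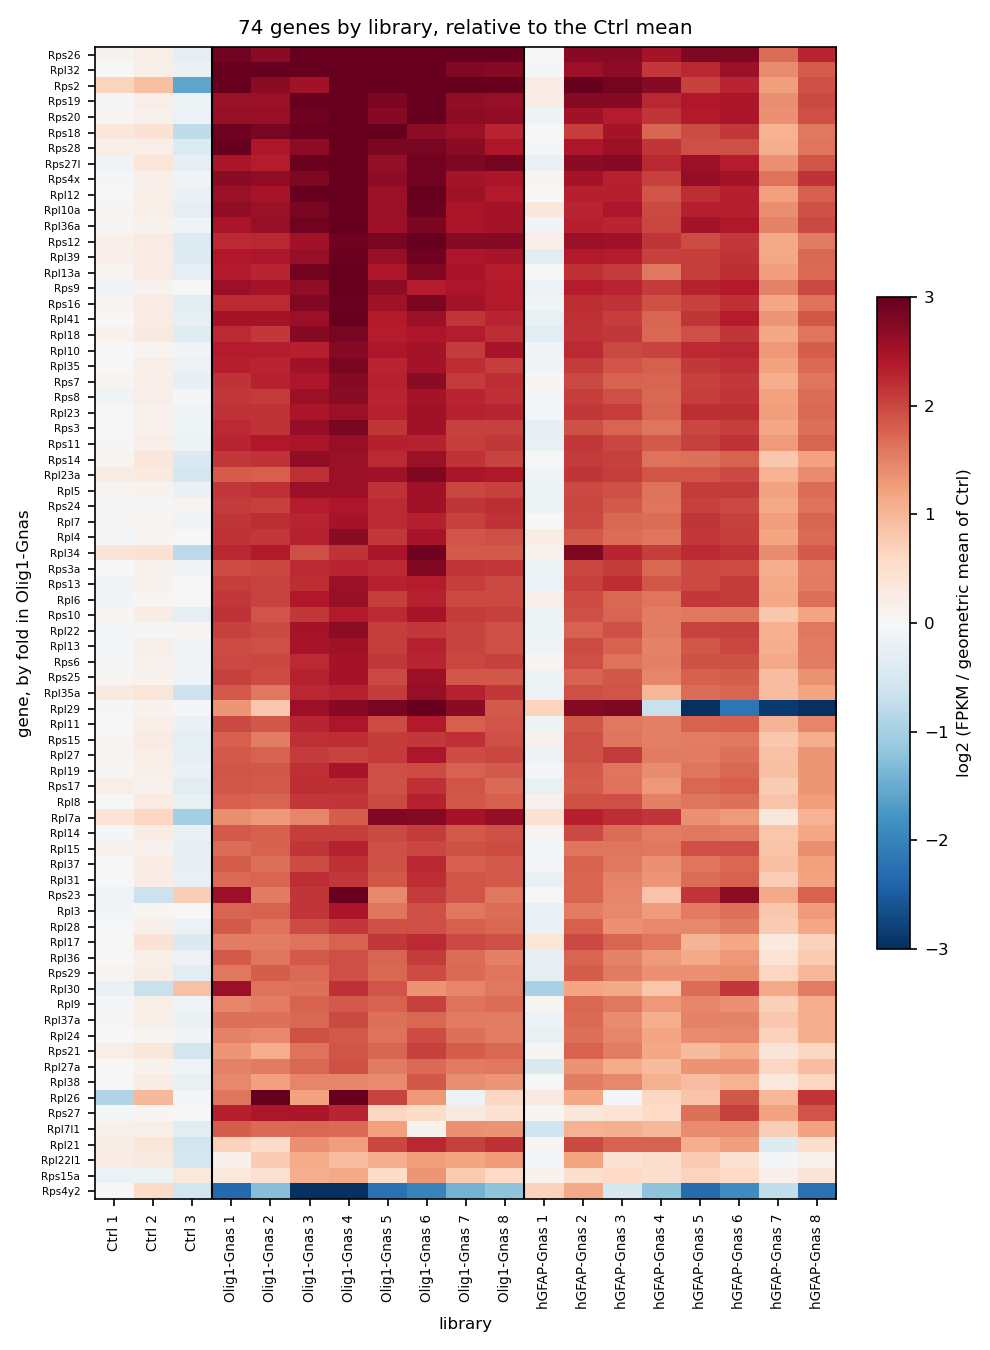
Level of 74 of the ribosomal protein genes (rows, by fold in Olig1-Gnas) in each library (columns) as log2 of the ratio of FPKM to the geometric mean of Ctrl. The median of all 76 genes lies 2.0 to 2.52 above Ctrl in Olig1-Gnas libraries, 1.08 to 1.98 above in hGFAP-Gnas 2 to 8, and at −0.06 in hGFAP-Gnas 1.

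Scaling each library so that the median ribosomal protein gene is constant shows which members rose more or less than the family. On that scale 19 of 76 genes were called above the family in Olig1-Gnas and 17 below, while among all genes 4.94% were called higher, 81.7% lower and 86.7% either way, with a median log2 fold over all genes of −1.75. Above the family were 12 small subunit genes, such as Rps26 by 0.90 (SE 0.10, adjusted p = 2.82e-06) and Rps20 by 0.60 (SE 0.09, adjusted p = 2.5e-05) on the log2 scale. Large subunit genes made up 7 of the 19, such as Rpl32 by 0.86 (SE 0.13, adjusted p = 3.66e-05) and Rpl39 by 0.41 (SE 0.09, adjusted p = 0.000894). Below it were 13 large subunit genes and 4 small subunit genes. Of these, Rpl22l1 was lower by 1.21 (SE 0.22, adjusted p = 0.000168), Rps15a by 1.37 (SE 0.20, adjusted p = 1.93e-05) and Rpl38 by 0.74 (SE 0.11, adjusted p = 2.3e-05), besides Rps4y2. The 12 genes with a TOP tract at the annotated start had a median relative log2 fold of −0.23, with 1 above and 4 below the family, and the other 45 genes with a promoter 0.03, with 15 above and 7 below. This difference between the 2 sets was not tested, and some of the 45, such as Rpl27a, have a pyrimidine run near the annotated start.

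Against Ctrl, 62 of the 76 genes rose in hGFAP-Gnas and 1 fell, where 26.1% of all 14305 genes tested were called higher, 12.8% lower and 38.9% either way. The median log2 fold was 1.44, against 0.19 over all genes. Both knockout comparisons use the same Ctrl libraries. Only 4 genes, Rpl10a, Rpl4, Rpl6 and Rps19, had every hGFAP-Gnas library above every Ctrl library, against 15.2% of all genes tested. Without hGFAP-Gnas 1, 70 of 76 members passed as higher and 1 as lower (38.0, 19.4 and, either way, 57.4% of all genes). The median log2 fold was then 1.65, and 66 of 76 genes had every remaining library above every Ctrl library (34.1% of all genes). hGFAP-Gnas 1 lay within the Ctrl range for 53 genes and was lowest of its group for 68, and hGFAP-Gnas 7 was second lowest for 65.

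The calls with all 8 libraries rested on every Ctrl library: without Ctrl 1 the count of called genes was 1, without Ctrl 2 it was 1, and without Ctrl 3 it was 5, where 7.36, 5.74 and 13.5% of all genes were called. Those called were Rpl10a in each of the 3 fits and, without Ctrl 3, also Rpl4, Rpl6 and Rps19 as higher. The median log2 fold of the 76 genes in these fits was 1.44, 1.52 and 1.33, against 1.44 with all Ctrl libraries. At an unadjusted p under 0.05 by limma were 65, 68 and 60 members, against 70 with all Ctrl libraries. Of all genes, 5585 of 14250, 5593 of 14239 and 5831 of 14208 were. In the deeper libraries alone, no member was called with hGFAP-Gnas 1 in the group (0.0433% of all genes), and 70 were called higher and 1 lower without it (30.8 and 10.2%, 41.1% either way). In the shallower libraries 44 of 75 members tested were called higher and 0 lower (14.4 and 2.43%, 16.9% either way).

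Rps26 again had the largest fold. Its hGFAP-Gnas libraries had a lowest, median and highest value of 329.8, 678 and 717 FPKM without library 1, which was at 101 FPKM, against 109.7, 118 and 83.1 FPKM in Ctrl. The log2 fold was 2.18 (SE 0.53, adjusted p = 0.0137) with library 1 and 2.49 (SE 0.25, adjusted p = 1.86e-05) without it. Rps19 was at 156, 315 and 398 FPKM without library 1 and at 68.6 FPKM in it, a log2 fold of 2.01 (SE 0.47, adjusted p = 0.0118) with all 8 libraries. Library 1 lay just above the highest Ctrl value of this gene. Rps4x, the X-linked gene of a small subunit body protein, had a log2 fold of 1.97 (SE 0.47, adjusted p = 0.0124). Rps27l, a copy of Rps27 known as a target of p53, went from 23.6, 32.6 and 21.4 FPKM in Ctrl to 65.6, 129 and 168 FPKM without library 1, which was at 22.0 FPKM, a log2 fold of 1.92 (SE 0.53, adjusted p = 0.0194). Rpl32 led the large subunit with 1.92 (SE 0.51, adjusted p = 0.0169). Rpl10a, whose protein forms the L1 stalk, had the smallest adjusted p of the family, with 99.7, 107 and 77.5 FPKM in Ctrl, 119 FPKM in library 1 and 248, 460.1 and 503 FPKM in the others, a log2 fold of 1.87 (SE 0.40, adjusted p = 0.00966).

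Of the 13 genes not called, 8 were called without library 1, and Rpl21, Rpl22l1, Rpl26, Rpl29 and Rps4y2 were not. Rps15a, with 21.8, 28.2 and 32.5 FPKM, had a log2 fold of 0.41 (SE 0.16, adjusted p = 0.0564) and 0.46 (SE 0.14, adjusted p = 0.0176) without library 1. Rpl22l1, with 57.0, 80.6 and 135 FPKM, had 0.42 (SE 0.27, adjusted p = 0.224) and 0.48 (SE 0.26, adjusted p = 0.128) without library 1. Rps4y2, with 1.54, 3.95 and 16.9 FPKM, had -0.68 (SE 0.59, adjusted p = 0.364), and hGFAP-Gnas 1 and 2 lay above its highest Ctrl value. Relative to the family median 4 members were called above and 6 below with all libraries (5.55 and 63.8% of all genes, 69.4% either way). Without library 1 these were 11 and 14 (6.73 and 76.6%, 83.4% either way). Rps26 was above by 0.80 (SE 0.14, adjusted p = 0.000141), Rps4x by 0.55 (SE 0.15, adjusted p = 0.00336) and Rps27l by 0.55 (SE 0.17, adjusted p = 0.00806) on the log2 scale. Rpl22l1 was below by 1.20 (SE 0.19, adjusted p = 7.63e-05) and Rpl38 by 0.70 (SE 0.16, adjusted p = 0.00144).

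Between the knockouts, no ribosomal protein gene was called by limma, where 0.41% of 14386 genes were (0.264% higher, 0.146% lower). The median log2 difference of hGFAP-Gnas minus Olig1-Gnas was −0.71, against −0.01 over all genes. At an unadjusted p under 0.05 were 68 of the 76 genes and 23.7% of all genes, and 75 of 76 were lower on average in hGFAP-Gnas. In the deeper libraries alone 4 of the 76 were (5.24% of all genes). The Y-linked gene Ddx3y was at 1 FPKM or more in 7 of 8 hGFAP-Gnas and 2 of 8 Olig1-Gnas libraries, and with this signal as a term 8 of the 76 were at an unadjusted p under 0.05 (4.53% of all genes), with a median difference of −0.59. Without hGFAP-Gnas 1 the median difference was −0.50 and Rps18 was the only member called, as lower (0.182% of all genes, with 0.35% higher and 0.532% either way). Rps18, a head protein whose start is shown above, had a lowest, median and highest level of 791, 1209 and 1454 FPKM with Olig1Cre and 164, 591 and 920.0 FPKM with hGFAPCre, a log2 difference of -1.17 (SE 0.29, adjusted p = 0.0805) with all libraries and -0.94 (SE 0.19, adjusted p = 0.0383) without library 1. The groups overlapped even without it. Relative to the family median 1 gene was called above in hGFAP-Gnas, Rps4y2, and 2 below, Rps18 and Rpl32, where 19.8% of all genes were called higher, 0.195% lower and 20% either way. Without library 1 Rpl29 was also called below (23.8% of all genes higher, 0.252% lower, 24.0% either way).

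Copies of ribosomal protein genes changed against their partners. Each balance is the difference of log2(FPKM + 1) between copy and partner in a library, tested by a two-sided exact permutation test over libraries, with 21 tests adjusted together and a smallest possible p of 0.00606 against Ctrl. Rpl22 binds RNA of the Epstein-Barr virus and is lost in some leukemias, and Rpl22l1 is its paralog. In Ctrl 1 and 2 Rpl22l1 was the higher of the pair, with 69.4 and 71.7 FPKM against 41.5 and 42.3 FPKM, and in Ctrl 3 the lower, with 41.5 against 45.6 FPKM. In all 8 Olig1-Gnas libraries Rpl22 was higher: Rpl22 stood at 165, 180.0 and 276 FPKM and Rpl22l1 at 65.6, 127 and 143 FPKM. The same held in hGFAP-Gnas 2 to 8, where Rpl22 was at 89.7, 147 and 179 FPKM, but not in hGFAP-Gnas 1, with 38.9 FPKM of Rpl22 and 57.7 FPKM of Rpl22l1. The balance was 0.45 ± 0.50 in Ctrl (SD, n = 3), −0.74 ± 0.44 in Olig1-Gnas and −0.59 ± 0.57 in hGFAP-Gnas (SD, n = 8). The exact permutation p was 0.00606 (adjusted 0.0141) and 0.0182 (adjusted 0.0294), and without Ctrl 1 or without Ctrl 2 the p in hGFAP-Gnas was 0.0667. Between the knockouts the difference was 0.15 (exact permutation p = 0.582).

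Rpl7l1, a copy of Rpl7 with a part in early ribosome assembly, also rose less than its partner. Rpl7 went from 179.5, 185 and 163 FPKM in Ctrl to 728, 824 and 993 FPKM in Olig1-Gnas and Rpl7l1 from 18.6, 18.7 and 13.3 to 18.0, 48.5 and 58.9 FPKM, with Olig1-Gnas 6 lowest. The balance moved by −0.91 in Olig1-Gnas (exact permutation p = 0.0242, adjusted 0.0339) and by −0.69 in hGFAP-Gnas (p = 0.00606 by the exact permutation test, adjusted 0.0141). Without Ctrl 1, 2 or 3 in turn, the p in Olig1-Gnas was 0.111, 0.111 and 0.0889. Rps27l against Rps27 moved by 1.31 in Olig1-Gnas (exact permutation p = 0.0667) and by 0.92 in hGFAP-Gnas (exact permutation p = 0.194). In Olig1-Gnas this balance was −0.68 to 0.23 in the shallower and 1.35 to 1.90 in the deeper libraries. In hGFAP-Gnas it was −0.64 to 0.28 in the shallower libraries and 1.00 to 1.71 in the deeper libraries 2 to 4, but −0.87, the lowest of the group, in the deeper library 1. The pseudogene locus Rps4y2 fell against Rps4x by 4.34 in Olig1-Gnas and 2.65 in hGFAP-Gnas (exact permutation p = 0.00606 and 0.0303, adjusted 0.0141 and 0.0398). The p in hGFAP-Gnas was 0.05 to 0.111 without any 1 Ctrl library or any 1 of hGFAP-Gnas 3 to 8. The copies Rpl10l, Rpl39l and Rpl3l stayed under 1 FPKM in every library, so their balance mostly follows the partner.

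**Figure D4:**
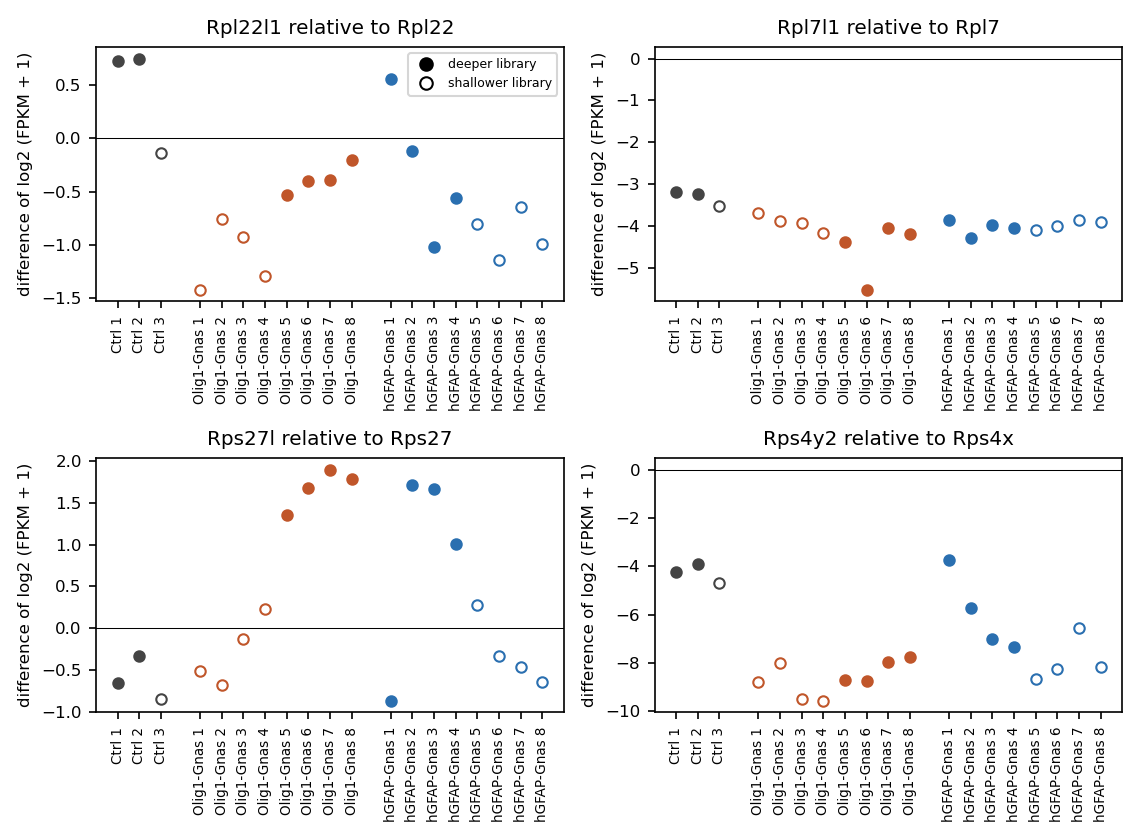
Difference of log2(FPKM + 1) between a copy and its partner gene in each library (y axis), for 4 pairs; filled points are deeper and open points shallower libraries. The balance of Rpl22l1 to Rpl22 averages 0.45 in Ctrl and lies below 0 in all Olig1-Gnas libraries; that of Rps27l to Rps27 splits by depth class in Olig1-Gnas, at −0.68 to 0.23 in shallower and 1.35 to 1.90 in deeper libraries.

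A few members followed the depth class of the library and not only the group. In the 16 knockout libraries, deeper against shallower, limma called 2 members higher and 1 lower, where 2.47% of all genes were called higher, 1.11% lower and 3.58% either way. Without hGFAP-Gnas 1 it called 4 higher and 1 lower (3.25, 1.16 and 4.4%). With all libraries the counts are near the shares over all genes. The counts called do not set the family apart by depth class, and the values below describe single members. Rps27, a zinc finger protein of the small subunit, was at 193 to 214 FPKM in Olig1-Gnas 1 to 4 and at 47.2 to 60.8 FPKM in Olig1-Gnas 5 to 8. In hGFAP-Gnas it was at 41.0 to 59.9 FPKM in libraries 1 to 4 and at 91.1 to 163 FPKM in 5 to 8, and in Ctrl at 37.7, 41.2 and 39.2 FPKM. The ranges of the classes did not overlap in either group, and the difference was -1.60 (SE 0.14, adjusted p = 7.15e-06) on the log2 scale. Its log2 fold by limma in Olig1-Gnas was 1.40 (SE 0.54, adjusted p = 0.0432) with all libraries and 0.46 (SE 0.14, adjusted p = 0.0395) in the deeper class. In the shallower class, with Ctrl 3 as the only Ctrl, it was 2.35. The call with all libraries was lost on leaving out any Ctrl library or any of Olig1-Gnas 1 to 4 (adjusted p of 0.0635 to 0.110).

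A set of 5 other members lay the other way, higher in the deeper libraries. Rpl7a was at 21.0 to 30.3 FPKM in the shallower and 48.1 to 58.2 FPKM in the deeper Olig1-Gnas libraries, and at 11.3, 13.1 and 4.22 FPKM in Ctrl 1 to 3, of which Ctrl 3 is shallower. The difference between classes was 0.94 (SE 0.23, adjusted p = 0.039) with all libraries and 1.15 (SE 0.13, adjusted p = 0.000174) without hGFAP-Gnas 1. Without that library the differences of Rpl21, Rps2 and Rpl17 were 0.95 (SE 0.17, adjusted p = 0.00731), 0.72 (SE 0.15, adjusted p = 0.0206) and 0.68 (SE 0.13, adjusted p = 0.013). Rpl29, a large subunit protein, was at 38.2 and 39.5 FPKM in hGFAP-Gnas 2 and 3, at 3.52 FPKM in hGFAP-Gnas 4 and at 0.556 to 1.25 FPKM in hGFAP-Gnas 5 to 8, with 5.38, 6.01 and 5.50 FPKM in Ctrl. In Olig1-Gnas Rpl29 was at 9.83 to 37.45 FPKM in libraries 1 to 4 and 20.2 to 47.3 FPKM in 5 to 8. These ranges overlapped. The class difference of Rpl29 by limma was 1.95 (SE 0.52, adjusted p = 0.0499), and 1.97 (SE 0.57, adjusted p = 0.0642) without hGFAP-Gnas 1. In hGFAP-Gnas against Ctrl the log2 fold of Rpl29 was -0.29 (SE 1.06, adjusted p = 0.839), with an SD of log2 of 1.99 within the group, the largest of all members.

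These 5 genes are those whose transcripts share a stretch of 50 identical bases with 50 or more annotated pseudogenes (GENCODE M21): 121 for Rpl7a, 81 for Rpl21, 79 for Rpl29, 71 for Rps2 and 50 for Rpl17. The other 71 members share one with a median of 8 and at most 28 pseudogenes. The limit of 50 was set after the values were seen. The 5 genes were low in Ctrl, with means of 1.79 to 17.3 FPKM, against a median of 95.9 FPKM for the other 71. All 5 were higher on average in the deeper than in the shallower knockout libraries, with and without hGFAP-Gnas 1. Of the other 71 members 18 were, and 48 without hGFAP-Gnas 1. The largest difference among these 71 was 0.99 with all libraries, above that of Rpl7a. Relative to the family median and without hGFAP-Gnas 1, 4 of the 5 genes were called higher, all but Rpl29. In that fit 2 of the other 71 were also called higher, Rps12 (22 pseudogenes) and Rps21 (2 pseudogenes), against 0.266% of all genes. The labels and tables do not state how reads that match several places were counted, and the level of such a gene is uncertain. Within the deeper class alone, the log2 folds in Olig1-Gnas were 2.06 (SE 0.14, adjusted p = 0.0002) for Rpl7a, 2.46 (SE 0.17, adjusted p = 0.000179) for Rps2 and 1.80 (SE 0.17, adjusted p = 0.00054) for Rpl17.

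**Figure D5:**
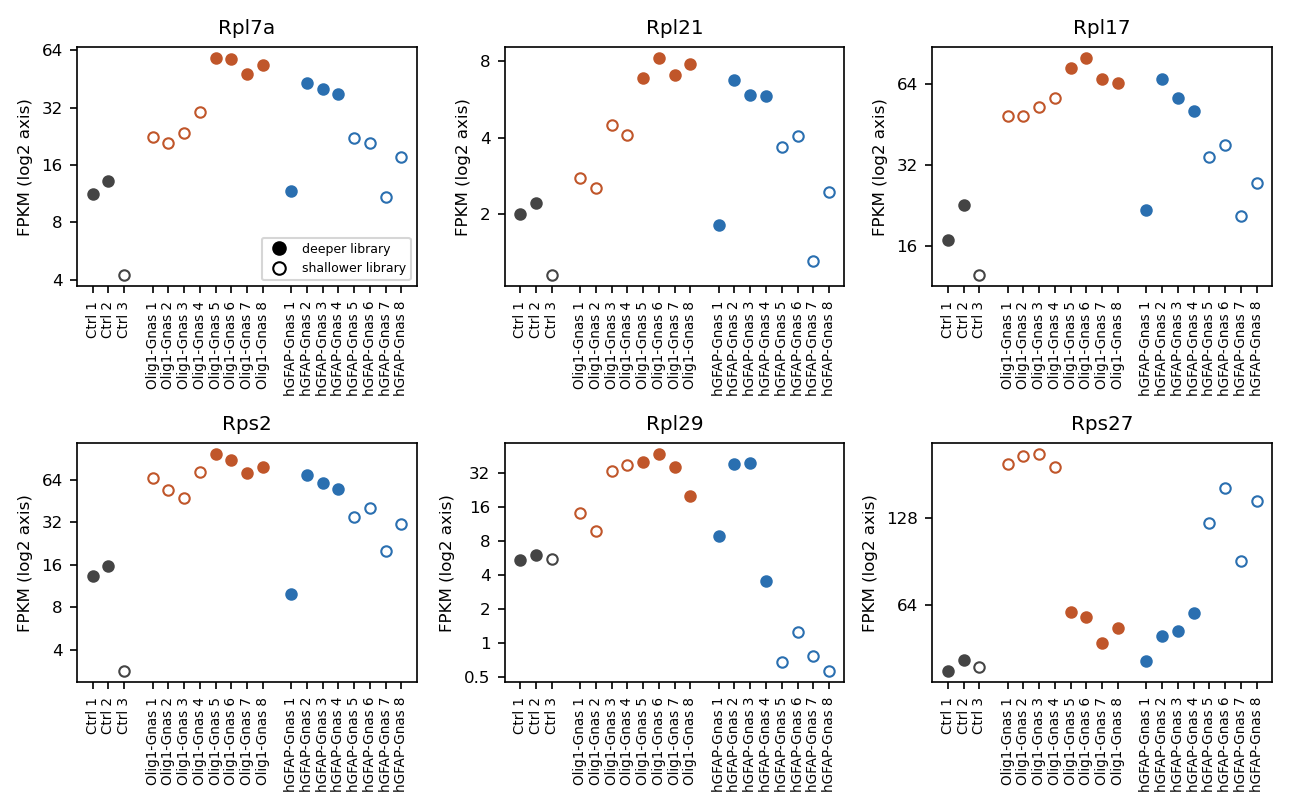
FPKM of 6 ribosomal protein genes in each library on a log2 axis; filled points are deeper and open points shallower libraries. Rps27 lies at 193 to 214 FPKM in the shallower and 47.2 to 60.8 FPKM in the deeper Olig1-Gnas libraries, and Rpl7a at 21.0 to 30.3 and 48.1 to 58.2 FPKM, the other way round.

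Grouped by role, few members broke with the family. Both 5S RNA binding proteins rose in each knockout. Of 9 proteins at the exit tunnel, 8 rose in Olig1-Gnas (median log2 fold 1.98) and 7 in hGFAP-Gnas (1.29), led by Rpl39 with 2.60 (SE 0.17, adjusted p = 1.24e-07) and 1.69 (SE 0.51, adjusted p = 0.0264) and Rpl35 with 2.37 (SE 0.15, adjusted p = 1.07e-07) and 1.60 (SE 0.42, adjusted p = 0.0164). Of 18 genes mutated in Diamond-Blackfan anemia, 17 rose in Olig1-Gnas (median 2.09) and 15 in hGFAP-Gnas (1.33), led by Rps26, Rps19 and Rps28. Rps28 had log2 folds of 2.75 (SE 0.18, adjusted p = 1.46e-07) and 1.71 (SE 0.48, adjusted p = 0.0203). All 6 genes with recurrent mutations in tumors, Rpl5, Rpl10, Rpl11, Rpl22, Rps15 and Rps20, rose in both groups, with medians of 2.2 and 1.5. Rpl10, mutated in T-cell leukemia, went from 48.2, 50.8 and 45 FPKM in Ctrl to 207, 252 and 318 FPKM in Olig1-Gnas. Each of these shares is close to that of the 76 genes as a whole. Of all genes tested, 36.2% were called higher in Olig1-Gnas and 26.1% in hGFAP-Gnas.

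Ribosomal genes that the symbol rule did not take moved alike. All 8 measured, such as Rplp0 of the stalk, Rpsa, Gnb2l1 (Rack1) and Fau, rose in each knockout, with median log2 folds of 1.92 and 1.21. Rplp0 had log2 folds of 3.29 (adjusted p = 3.55e-08) and 2.41 (adjusted p = 0.011), and Rpsa 2.86 (adjusted p = 2.93e-07) and 2.0 (adjusted p = 0.0115). Of 15 translation factors and other genes with TOP mRNAs, 15 rose in Olig1-Gnas (median 1.66) and 13 in hGFAP-Gnas (1.12). Eef1a1, which brings aminoacyl-tRNA to the ribosome, had 2.69 (adjusted p = 4.33e-08) and 2.03 (adjusted p = 0.0134). Of 40 genes of ribosome assembly, 37 rose and 1 fell in Olig1-Gnas (median 1.34) and 30 rose in hGFAP-Gnas (0.83), led by Fbl, the methyltransferase of ribosomal RNA, with 2.79 (adjusted p = 1.28e-07) and 2.07 (adjusted p = 0.0101). RNA polymerase I and its factors had 11 and 7 of 14 genes called higher, with medians of 0.81 and 0.61. Among all genes tested, 36.2% were called higher and 23.6% lower in Olig1-Gnas. In hGFAP-Gnas 26.1% were called higher, or 38.0% without hGFAP-Gnas 1. Without hGFAP-Gnas 1, the counts called higher in hGFAP-Gnas were 14 of the 15 translation genes, 35 of the 40 assembly genes, 12 of the 14 polymerase I genes, 8 of the 9 tunnel genes and 17 of the 18 Diamond-Blackfan genes.

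Among 14 regulators of ribosome production and of mTORC1, 7 rose and 2 fell in Olig1-Gnas, and 4 rose and 1 fell in hGFAP-Gnas (7 and 2 without hGFAP-Gnas 1). Of all genes, 36.2% were called higher and 23.6% lower in Olig1-Gnas, and 38.0 and 19.4% in hGFAP-Gnas without library 1. With all hGFAP-Gnas libraries the counts are near the 26.1% of all genes called higher and the 12.8% called lower. There the count does not set the list apart. The median log2 fold of the 14 genes was 0.33 in Olig1-Gnas and 0.26 in hGFAP-Gnas, against 0.22 and 0.19 over all genes. The largest were Mycn, at a mean of 1.89 FPKM in Ctrl, 108 in Olig1-Gnas and 86.6 in hGFAP-Gnas, with log2 folds of 5.20 (adjusted p = 1.64e-08) and 4.48 (adjusted p = 0.00777), and Myc, with 3.66 (adjusted p = 4.62e-08) and 3.10 (adjusted p = 0.00699). In hGFAP-Gnas 1 Mycn was at 3.54 FPKM. Mitochondrial ribosomal protein genes, which serve the other ribosome of the cell, had smaller median folds: 44 of 76 rose in Olig1-Gnas with a median log2 fold of 0.51, against 36.2% of all genes called higher, and 4 of 76 in hGFAP-Gnas with a median of 0.30, against 26.1% of all genes. Without hGFAP-Gnas 1, 32 of 76 were called higher, near the 38.0% of all genes. Their median gene stood at 23.3 to 31.1 FPKM in Ctrl and 28.2 to 40.6 FPKM in Olig1-Gnas.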

How the data were processed

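RNA of mouse cerebellum was sequenced in 19 libraries. The authors deposited FPKM values per gene in 2 tables, made with TopHat and Cufflinks on mm9, per the submitters' processing notes. Their versions, the annotation and the treatment of reads matching several places are not given in the sources used here. Each knockout was set against the Ctrl columns of its own table. The labels do not say how the libraries of a group relate beyond being separate samples, so p-values measure the spread between these samples.

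Genes that reached 1 FPKM in 3 or more libraries of a comparison were tested on log2(FPKM + 1) with limma 3.58.1 (R 4.3.3, with trend and robust moderation), with Benjamini-Hochberg adjustment over all genes tested. Fold changes are on this scale, which understates changes of low genes. Balances between gene copies were tested by two-sided exact permutation. The scripts were tested on simulated data. A relative depth of 0.6 divided deeper from shallower libraries.

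The members and lists were chosen with earlier results of these data known. Genes named are the 6 largest folds called in each direction, paralog pairs, up to 3 per list, and the 3 highest, lowest, most and least variable. Others, such as Rps6, Rps12, Rps18, Rps21, Rpl6, Rpl10a, Rpl15 and Rpl17, were named after their values were seen. The fit of depth class, and fits that combine it or the family scaling with leaving out hGFAP-Gnas 1, were also added then. Some genes enter the counts and medians but are not reported by name or drawn here. Promoters came from RefSeq (GRCm38.p6) and pseudogenes from GENCODE M21, matched by symbol, without coordinates converted. Alternatives were other scalings, filters, thresholds, depth classes, added terms, and leaving out each library.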

Additional observations from a re-analysis of the deposited data

Results flagged for a closer look

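In 3 of 70 groups of 8 libraries examined, a library stood apart from the other 7 by Dixon's criterion, which chance meets in about 1 in 20 groups. Rpl37a was at 391 FPKM and Rpl41 at 2989 FPKM in Olig1-Gnas 4, and Rpl38 at 1198 FPKM in Olig1-Gnas 6, each the highest of its group.

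The balance of 4 gene copies to their partner differed between the knockouts by the exact permutation test. In hGFAP-Gnas it was higher than in Olig1-Gnas by 0.92 for Rpl39l to Rpl39, by 0.87 for Rpl3l to Rpl3 and by 0.68 for Rpl10l to Rpl10 on the log2 scale, with adjusted values of 0.00653, 0.0114 and 0.0141. These copies were under 1 FPKM in every library, so their balance mostly follows the partner and is no separate result about the copy. None of their partners was called between the knockouts by limma. For Rps4y2 to Rps4x the difference was 1.69 (exact permutation p = 0.00901, adjusted 0.0189).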

How the results depend on the processing

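In Olig1-Gnas against Ctrl the number of ribosomal protein genes called was 73 to 76 on leaving out each library and 36 when scaled to the family median. In hGFAP-Gnas against Ctrl it was 1 to 71 on leaving out each library, 1 at a threshold of 0.01, 10 when scaled to the family median (25 also without hGFAP-Gnas 1) and 0 in deeper libraries only. Between the knockouts it was 0 to 1 on leaving out each library, 3 when scaled to the family median (4 also without hGFAP-Gnas 1), 1 in shallower libraries only and 1 with depth class as a term. Same-numbered libraries correlated at −0.18 to 0.25 after the group means were taken out. These values give no clear sign that the numbers pair them, but cannot exclude it. With the replicate block, 74 genes were called in Olig1-Gnas, 0 in hGFAP-Gnas and 0 between the knockouts, the comparisons with Ctrl over the 6 libraries numbered 1 to 3. Directions that turned among the named genes and pairs were all of values not called. Rpl29 in hGFAP-Gnas against Ctrl had log2 folds of 1.29 in deeper libraries only, 1.53 there without hGFAP-Gnas 1, 0.11 with depth class as a term, 0.097 with Y-linked signal as a term and 1.92 with the replicate block, and Rps4y2 had 0.41 with the replicate block. Between the knockouts Rpl7l1 had 0.026 in deeper libraries without hGFAP-Gnas 1. The balance of Rpl22l1 to Rpl22 between the knockouts was −0.018, without hGFAP-Gnas 1, to 0.22 on leaving out each library. The causes were not tested. Absolute depth is unknown, and 3 Ctrl libraries limit the precision of every fold.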
